A study of Mus musculus with 36 samples.

Results

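Described here are 10 genes of insulin and insulin-like growth factor (IGF) signalling, of 54735 gene symbols in the deposited table: the substrates Irs1 and Irs2, the receptors Insr, Igf1r and Igf2r, and the IGF-binding protein genes Igfbp2, Igfbp3, Igfbp4, Igfbp5 and Igfbp6. They were found by symbol, and the set was chosen on the reading that Irs1 fell with thapsigargin in WT cells but not without PERK. In cells lacking PERK it was also lower, but by much less (log2 difference -0.15, against -1.83 in WT). The thapsigargin values of WT and PERK-deletion cells therefore describe the choice, and no test is given for them. The RNA came from mouse embryonic fibroblasts (MEFs, cells cultured from embryo connective tissue) and was read by stranded sequencing of whole-cell RNA. The lines were GCN2 deletion, PERK deletion and WT. GCN2 (gene Eif2ak4) is the kinase that senses amino acid shortage, and PERK (gene Eif2ak3) is the kinase that senses unfolded protein in the endoplasmic reticulum (ER); both phosphorylate the translation factor eIF2alpha. Each line was starved of lysine and arginine, left untreated, given thapsigargin at 200 nM, a blocker of the ER calcium pump, or given the solvent DMSO, with 6 h of stress. All 12 groups were grown in the same serum-containing medium beforehand, and each held 3 libraries, 36 in all.

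The libraries of a group are technical replicates by their labels, so the p-values speak only for the variation among repeat libraries of a single line per genotype. The effect of a deletion and any other difference between the lines cannot be told apart. The labels name neither the clone nor the part of each kinase gene that was removed, and they name no control for the change of medium. Starved cells were compared with untreated cells and thapsigargin with DMSO.

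Insulin, IGF1 and IGF2 are secreted hormones that bind the receptor tyrosine kinases encoded by Insr and Igf1r. The activated receptors phosphorylate the docking proteins IRS1 and IRS2, which recruit phosphoinositide 3-kinase and so switch on AKT and mTOR, the drivers of growth, glucose uptake and protein synthesis. IGF2R, also the mannose 6-phosphate receptor, carries IGF2 to lysosomes, and the IGF-binding proteins hold IGFs outside the cell and set how much reaches the receptors. In fibroblasts IGF signalling is known for driving proliferation and survival.

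The thapsigargin results turned on Irs1 and Irs2, which went opposite ways in the GCN2-deletion cells, so the stretch upstream of each is shown. Both are 250 bases ending just before the RefSeq start in GRCm38.p6, on the minus strand, written 5′ to 3′ along the gene, with the E-box CACGTG (the core site of basic helix-loop-helix leucine zipper factors) in capitals. The Irs1 window is chr1:82291440-82291689 and the Irs2 window is chr8:11008930-11009179.
Irs1: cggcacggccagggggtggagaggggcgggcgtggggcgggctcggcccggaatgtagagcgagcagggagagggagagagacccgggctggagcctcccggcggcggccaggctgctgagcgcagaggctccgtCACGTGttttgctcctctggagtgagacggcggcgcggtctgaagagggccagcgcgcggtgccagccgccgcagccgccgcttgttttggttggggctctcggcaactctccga
Irs2: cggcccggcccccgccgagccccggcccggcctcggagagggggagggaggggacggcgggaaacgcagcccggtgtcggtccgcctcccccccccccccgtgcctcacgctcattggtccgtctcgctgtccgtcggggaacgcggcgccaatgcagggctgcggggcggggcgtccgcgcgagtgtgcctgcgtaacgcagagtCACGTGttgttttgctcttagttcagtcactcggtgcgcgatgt
The E-box began 115 bases before the Irs1 start and 44 bases before the Irs2 start, and both copies lay in the same run of 10 bases, GTCACGTGTT. That run was in 23 of 27025 mouse genes with such windows (0.0851%). It was picked from these same windows as the longest run around the E-box that both share, so nothing is read from its rarity. The E-box itself, which reads the same on both strands, was in the windows of 4 of the 9 members with an entry (Irs1, Irs2, Igf2r and Igfbp2; Insr had none), against 6.86% of all genes and 9.9% of the genes with at least 65% G and C. Both windows were rich in G and C (72.4% for Irs1 and 72.8% for Irs2). Searched on both strands, the C/EBP-ATF element TGATGNAA, the unfolded protein element TGACGTGG and the FOXO site TGTTTAC matched in 0 of the 9 members. These motifs were found in 3.91%, 0.603% and 3.54% of all genes, in that order. Among the genes with at least 65% G and C the shares were 0.615%, 0.933% and 0.973%. The letters describe these windows only; the RefSeq start lay 23 bases from the GENCODE start for Irs1 and 471 bases from it for Irs2.

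In GRCm38 with GENCODE M21, Irs1 lies on chromosome 1 (82233101 to 82291416, minus strand) and Irs2 on chromosome 8 (10984681 to 11008458, minus strand). Insr is on chromosome 8 (3122061 to 3279617, minus strand), Igf1r on chromosome 7 (67952827 to 68233668, plus strand) and Igf2r on chromosome 17 (12682406 to 12769664, minus strand). Igfbp2 (72824503 to 72852474, plus strand) and Igfbp5 (72857932 to 72874884, minus strand) are neighbours on chromosome 1, facing each other across 5457 bases. Igfbp3 (7206086 to 7213923, minus strand) and Igfbp4 (99041244 to 99054392, plus strand) are on chromosome 11, and Igfbp6 (102144362 to 102149511, plus strand) on chromosome 15. All 10 are protein coding, and the values below sum whole transcripts of each gene. The receptors and Irs1 have the longest transcripts, 8887 bases for Igf2r, 9144 for Irs1, 9355 for Insr and 11409 for Igf1r, while Igfbp2 and Igfbp6 have 1307 and 1112 bases.

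Eif2ak4 averaged 5.25 ± 0.619 TPM in untreated GCN2-deletion cells and 24.6 ± 3.81 TPM in untreated WT cells (SD, n = 3 each). Eif2ak3 averaged 4.22 ± 0.353 TPM in untreated PERK-deletion cells and 6.99 ± 0.878 TPM in WT, and still rose with thapsigargin in the PERK-deletion line (log2 change 0.80, limma adjusted p = 9.69e-07). A gene total checks a deletion only as far as the removed part is counted. Of 8 fibroblast markers, 8 averaged at least 1 TPM in GCN2-deletion and in WT cells and 7 in PERK-deletion cells, where Pdgfra ranged over 0.206 to 0.729 TPM and Col1a1 over 8.94 to 16.2 TPM, against 3.26 to 6.16 TPM of Pdgfra and 556 to 1329 TPM of Col1a1 in WT. Of the 8, 6 were lower in every PERK-deletion library than in any WT library (Col1a1, Col1a2, Col3a1, Pdgfra, Pdgfrb and Thy1) and 2 higher: Vim with 2029 to 2404 TPM in PERK-deletion and 1394 to 1731 TPM in WT libraries, and Twist1 with 23.3 to 25.7 and 11.7 to 15.2 TPM. The summed fibroblast list ran over 4146 to 5144 TPM in GCN2-deletion, 2215 to 2558 TPM in PERK-deletion and 2519 to 3703 TPM in WT libraries. Lists for epithelium, endothelium, blood, muscle and fat summed to at most 14.4 TPM in any library, and the neural list to 45.4 TPM. Transcripts of at least 8000 bases stood low against their gene means in 4 WT libraries, by a median of -0.40 on the log2 scale in untreated replicate 3, -0.43 in DMSO replicate 2, -0.52 in thapsigargin replicate 2 and -0.57 in thapsigargin replicate 3. They stood high in the GCN2-deletion thapsigargin libraries, by 0.26 to 0.32. Other libraries shifted too, as untreated GCN2-deletion replicate 2 by -0.28, WT thapsigargin replicate 1 by -0.22 and untreated PERK-deletion replicate 1 by 0.25. Values with the trend on transcript length taken out are given for several of the results below.

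The substrate genes had similar TPM, a level per length, within each line in unstressed cells, and their levels parted with thapsigargin. Irs1, the first docking protein found for the insulin receptor, spanned the widest range of any substrate or receptor gene, 2.84 on the log2 scale between the highest group mean (starved PERK-deletion cells) and the lowest (WT with thapsigargin). Irs2, the docking protein best known from liver and pancreatic beta cells, spanned 1.31. The lowest mean of both was WT with thapsigargin, which is among the values that chose the set. These ranges therefore partly describe the choice.

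**Figure D1:**
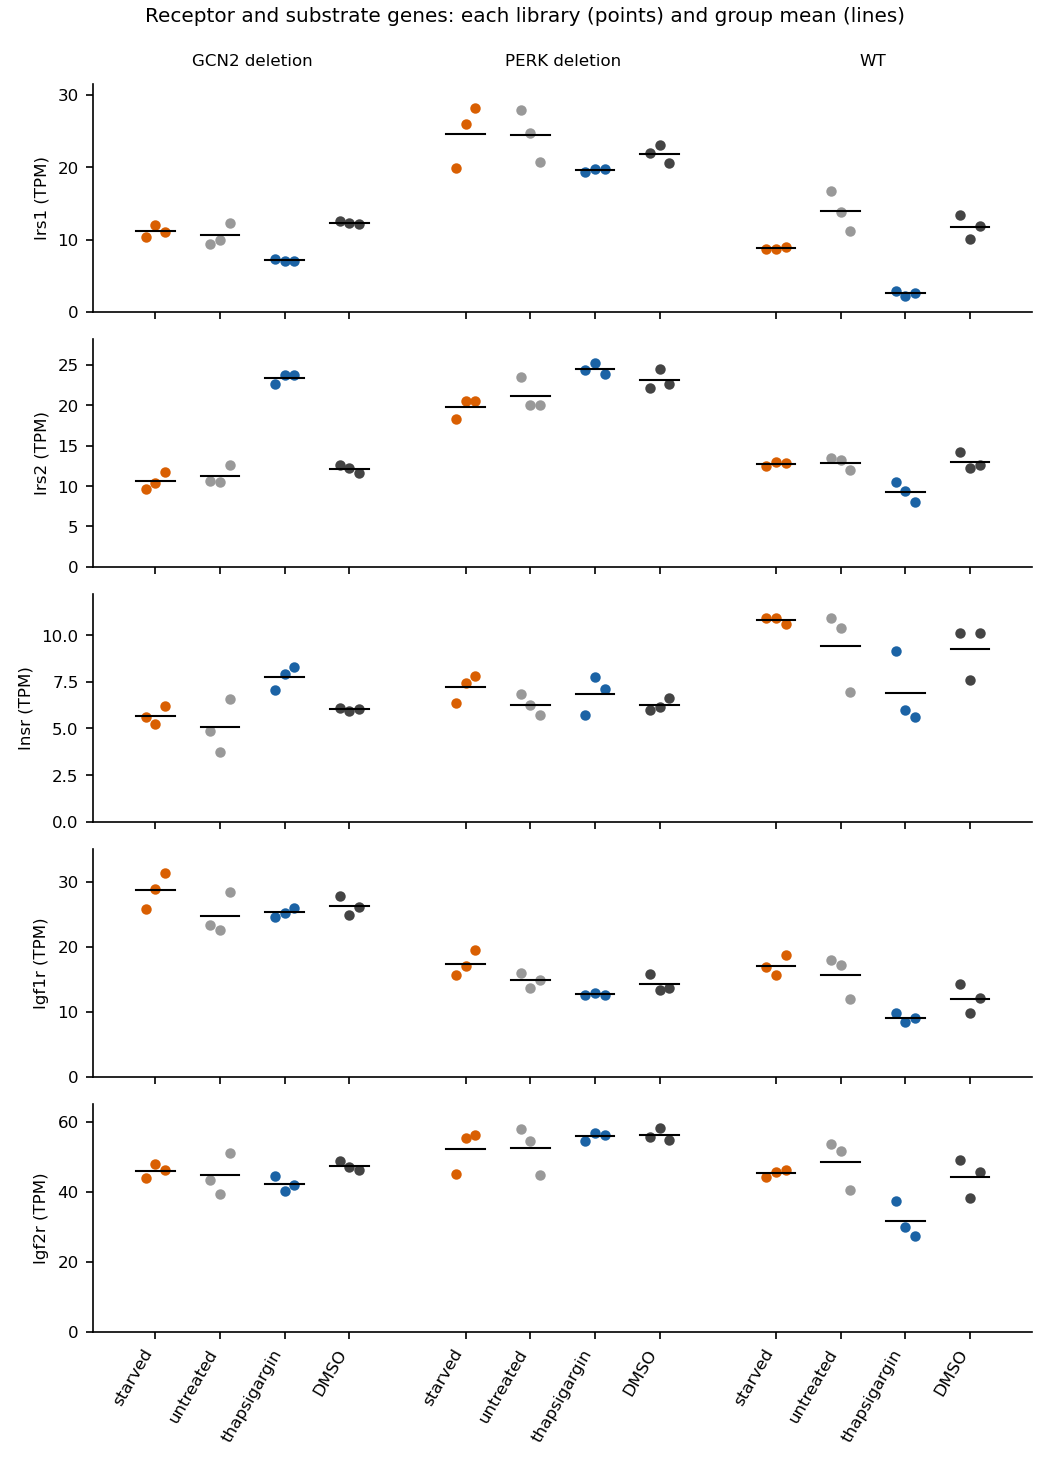
TPM (vertical axes, linear from 0) of Irs1, Irs2, Insr, Igf1r and Igf2r in all 36 libraries; points are libraries and lines are means of the 3 libraries of a group. Irs1 in WT with thapsigargin sits at 2.17 to 2.87 TPM, under every other library, while Irs2 in the GCN2-deletion line sits at 22.7 to 23.8 TPM with thapsigargin and at 11.6 to 12.6 TPM with DMSO.

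In GCN2-deletion cells, the thapsigargin response the set was not chosen on, Irs1 had 7.33, 7.05 and 7.03 TPM with thapsigargin, against 12.6, 12.3 and 12.1 TPM with DMSO. Every thapsigargin library was below every DMSO library. The mean with thapsigargin was 0.578 times that with DMSO, and Irs1 fell by 0.71 on the log2(TPM + 1) scale (SE 0.124, limma adjusted p = 4.17e-05). Irs2 went the other way in the same cells, with 22.7, 23.7 and 23.8 TPM with thapsigargin, against 12.6, 12.2 and 11.6 TPM with DMSO. The groups did not overlap. The thapsigargin mean was 1.93 times the DMSO mean, and the log2 change was 0.89 (SE 0.0851, limma adjusted p = 2.09e-09). The third member that passed in this comparison was Igfbp3, described with its family, so that 3 of the 9 members that could be tested changed, against 36.6% of all 16083 genes tested. Of these 2 rose, as 25.4% of all genes did, and 1 fell, as 11.2% did. The median log2 change was -0.05 over the 9 members and 0.08 over all genes. Long transcripts moved with this contrast: genes with transcripts of at least 8000 bases had a median log2 change of 0.26 and those under 2000 bases -0.02. With the trend on transcript length taken out of each library, Irs1 changed by -1.0 and Irs2 by 0.65. Of all calls in the comparison 69.4% were rises, and 48.3% after median-of-ratios rescaling, which moved the median of all genes to -0.02.

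The values that chose the set were as follows. In PERK-deletion cells Irs1 had 19.3, 19.7 and 19.7 TPM with thapsigargin, against 21.9, 23.1 and 20.6 TPM with DMSO. In WT cells it had 2.87, 2.17 and 2.67 TPM with thapsigargin, against 13.4, 10.1 and 11.8 TPM with DMSO. The thapsigargin libraries were the lower in both lines without overlap, by 0.15 in the PERK-deletion line and by 1.83 in WT on the log2 scale. With the length trend taken out, the WT difference was -1.62.

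Irs2 was nearly level in the PERK-deletion line, with 24.4, 25.2 and 23.9 TPM with thapsigargin, against 22.2, 24.5 and 22.6 TPM with DMSO. In WT it had 10.5, 9.40 and 8.01 TPM with thapsigargin, against 14.2, 12.2 and 12.6 TPM with DMSO, each thapsigargin library below each DMSO library. The log2 differences were 0.08 in the PERK-deletion line and -0.44 in WT. The GCN2-deletion response of Irs2 thus lay 1.34 above that of WT, and the PERK-deletion response 0.53 above it; both differences share the WT libraries and neither was tested.

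By limma, 26.2% of all genes passed with thapsigargin in WT and 5.24% in the PERK-deletion line. The difference from the WT response passed for 14.2% of all genes in the GCN2-deletion line and for 12.9% in the PERK-deletion line. Since the members were chosen on these values, no count of members is given for these contrasts. Of the genes whose response in the GCN2-deletion line differed from that in WT, 86.7% were higher, and 51.5% after median-of-ratios rescaling, which put the median of all genes at -0.04 in place of 0.13.

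**Figure D2:**
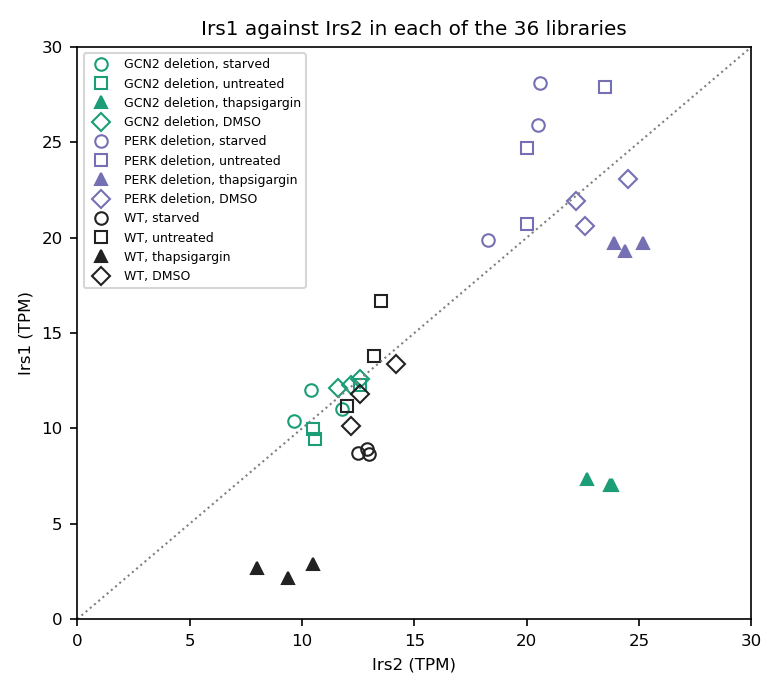
Irs2 TPM (horizontal axis) against Irs1 TPM (vertical axis) for each of the 36 libraries, with the line shown by colour and the treatment by marker shape; the dotted diagonal marks equal TPM. The thapsigargin libraries of GCN2-deletion and WT cells lie at low Irs1 for their Irs2, at ratios of 0.295 to 0.323 and 0.231 to 0.333, and those of PERK-deletion cells at 0.779 to 0.825.

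The balance of the substrates sums this up per library. The ratio of Irs1 to Irs2 TPM was 0.305 ± 0.0155 with thapsigargin and 1.02 ± 0.0265 with DMSO in GCN2-deletion cells, 0.798 ± 0.0239 and 0.948 ± 0.0375 in PERK-deletion cells, and 0.279 ± 0.0512 and 0.902 ± 0.0646 in WT cells (SD, n = 3 each). In each line all 3 thapsigargin ratios were below all 3 DMSO ratios. In the GCN2-deletion line the lower ratio came with less Irs1 and more Irs2, and in WT with less of both.

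Among the substrates, Irs1 passed a test with starvation and Irs2 did not. In GCN2-deletion cells Irs1 had 10.4, 12 and 11 TPM when starved, against 9.44, 9.98 and 12.3 TPM untreated. In PERK-deletion cells it had 19.9, 25.9 and 28.1 TPM when starved, against 27.9, 24.7 and 20.7 TPM untreated. Both pairs of groups overlapped, and the log2 changes were 0.07 and 0.01 (limma adjusted p = 0.746 and 1). In WT cells it had 8.69, 8.68 and 8.94 TPM when starved, against 16.7, 13.8 and 11.2 TPM untreated, with all starved libraries lower. Irs1 fell in WT by 0.59 (SE 0.124, limma adjusted p = 0.000501), the starved mean being 0.632 times the untreated mean. The call did not hold when the WT groups were fitted alone (adjusted p = 0.0543).

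The Irs1 response was higher than in WT by 0.66 in the GCN2-deletion line (SE 0.176, limma adjusted p = 0.0152) and by 0.60 in the PERK-deletion line (SE 0.176, limma adjusted p = 0.025). Both differences use the same WT libraries. The untreated WT libraries spread widely, and without untreated WT replicate 1 the differences were 0.53 and 0.46 and did not pass (limma adjusted p = 0.0622 and 0.0944). The GCN2-deletion difference also did not pass without untreated GCN2-deletion replicate 1 (0.59, adjusted p = 0.0551), nor with DMSO in place of untreated cells (0.24, adjusted p = 0.573). The PERK-deletion difference did not pass without starved PERK-deletion replicate 2 or 3 or untreated replicate 3 (0.56, 0.50 and 0.49). Nor did it pass with DMSO in place of untreated cells (0.53, adjusted p = 0.057) or without a filter (adjusted p = 0.0559). Neither difference passed with the compared groups fitted alone (adjusted p = 0.0845 and 0.218). With the length trend taken out both passed (0.50 and 0.59, limma adjusted p = 0.000201 and 1.61e-05).

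Irs2 gave no such pattern. Starved and untreated libraries held 9.66 to 11.8 and 10.5 to 12.6 TPM in GCN2-deletion cells, 18.3 to 20.6 and 20.0 to 23.5 TPM in PERK-deletion cells, and 12.5 to 13.0 and 12 to 13.5 TPM in WT cells. The groups overlapped in each line, and the log2 change in WT was -0.01 (SE 0.0851). The ratio of Irs1 to Irs2 in WT was accordingly 0.686 ± 0.0157 when starved and 1.07 ± 0.155 untreated.

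Across lines, untreated PERK-deletion cells held more of both substrates than WT. For Irs1, the libraries listed above averaged 24.4 ± 3.62 TPM in PERK-deletion cells and 13.9 ± 2.78 TPM in WT cells (SD, n = 3 each), without overlap (log2 difference 0.78, SE 0.124, limma adjusted p = 5.81e-06). Irs2 had 23.5, 20.0 and 20.0 TPM in PERK-deletion cells and 13.5, 13.2 and 12 TPM in WT cells, also without overlap (log2 difference 0.67, SE 0.0851, limma adjusted p = 1.59e-07). With the length trend taken out these differences were 0.60 for Irs1 and 0.52 for Irs2. Both passed (limma adjusted p = 4.59e-09 and 1.33e-07). In untreated GCN2-deletion cells Irs1 averaged 10.6 ± 1.49 TPM, overlapping WT; its difference of -0.35 passed (SE 0.124, limma adjusted p = 0.0214) but was 0.07 between the DMSO groups, and it did not pass without WT replicate 1 or GCN2-deletion replicate 1 or 2 (-0.22, -0.29 and -0.32). Irs2 averaged 11.2 ± 1.17 TPM in GCN2-deletion cells and did not pass against WT, though it did with the length trend taken out (-0.18, limma adjusted p = 0.0242).

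Among the receptors, Insr and Igf1r differed between untreated lines, and no test of a treatment passed with the main settings. Insr, the insulin receptor gene, had the lowest TPM, a level per length, of the 5 substrate and receptor genes in every group but starved WT, WT with thapsigargin and GCN2-deletion with thapsigargin, where Irs1 was lower. Untreated it had 4.87, 3.75 and 6.57 TPM in GCN2-deletion cells, 6.85, 6.25 and 5.70 TPM in PERK-deletion cells and 10.9, 10.4 and 6.94 TPM in WT cells. All libraries of both deletion lines were below all WT libraries, WT replicate 3 being the lowest of its group and one of those with low long transcripts. GCN2-deletion replicate 2, the lowest of its group, also had low long transcripts (median -0.28). The differences from WT were -0.78 in the GCN2-deletion line (SE 0.158, limma adjusted p = 0.000164) and -0.50 in the PERK-deletion line (SE 0.158, limma adjusted p = 0.00973). Both calls held with the length trend taken out (-0.78 and -0.68, limma adjusted p = 1.1e-08 and 1.15e-07). Neither held with the compared groups fitted alone (adjusted p = 0.0597 and 0.0901). The PERK-deletion difference also did not pass without WT replicate 1 or 2 (adjusted p = 0.0614 and 0.053), nor without the 6 libraries whose microRNA genes held over 2% of TPM (-0.34, adjusted p = 0.175).

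Igf1r, the IGF1 receptor gene, was highest in the GCN2-deletion line. Untreated it had 23.3, 22.6 and 28.4 TPM in GCN2-deletion cells, 16.0, 13.7 and 14.9 TPM in PERK-deletion cells and 17.9, 17.2 and 11.9 TPM in WT cells. GCN2-deletion libraries were all above WT libraries (log2 difference 0.64, SE 0.124, limma adjusted p = 9.37e-05), while PERK-deletion libraries lay within the WT range (log2 difference -0.05, adjusted p = 0.757). With the length trend taken out the PERK-deletion difference was -0.25 and passed (limma adjusted p = 0.00588). The 12 GCN2-deletion libraries over all treatments held 22.6 to 31.3 TPM and the 24 others 8.48 to 19.5 TPM, so they did not overlap.

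Igf2r, the mannose 6-phosphate and IGF2 receptor gene, was the most abundant receptor per length. Untreated it had 43.4, 39.5 and 51.2 TPM in GCN2-deletion cells, 58.0, 54.6 and 44.8 TPM in PERK-deletion cells and 53.7, 51.8 and 40.4 TPM in WT cells. The 3 lines overlapped and neither difference passed, though the GCN2-deletion difference did with the length trend taken out (-0.11, limma adjusted p = 0.0134).

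With the main settings no receptor gene passed for starvation in any line, or for thapsigargin in the GCN2-deletion line. With thapsigargin Insr there had 7.07, 7.90 and 8.27 TPM, against 6.08, 5.96 and 6.03 TPM with DMSO, all above DMSO (adjusted p = 0.125). With the length trend taken out, a setting chosen after the data were seen, receptor genes did pass: Igf2r in starved GCN2-deletion cells (-0.10, limma adjusted p = 0.0399) and Igf1r in starved PERK-deletion cells (0.22, limma adjusted p = 0.0422). With thapsigargin in GCN2-deletion cells Igf1r and Igf2r then passed with log2 changes of -0.34 and -0.44 (limma adjusted p = 0.00053 and 2.4e-10).

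In WT cells with thapsigargin, Insr had 9.15, 5.98 and 5.59 TPM, against 10.1, 7.60 and 10.1 TPM with DMSO. Igf1r had 9.83, 8.48 and 8.96 TPM with thapsigargin, against 14.2, 9.74 and 12.1 TPM with DMSO. Igf2r had 37.5, 29.9 and 27.3 TPM with thapsigargin, against 49, 38.2 and 45.7 TPM with DMSO. Insr and Igf1r overlapped between the groups, and Igf2r did not. The log2 differences of -0.39, -0.35 and -0.48 became -0.17, -0.10 and -0.27 with the length trend taken out. Replicates 2 and 3 with thapsigargin and DMSO replicate 2 are the libraries of lowest long transcripts here. Their part in the result was not tested.

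**Figure D3:**
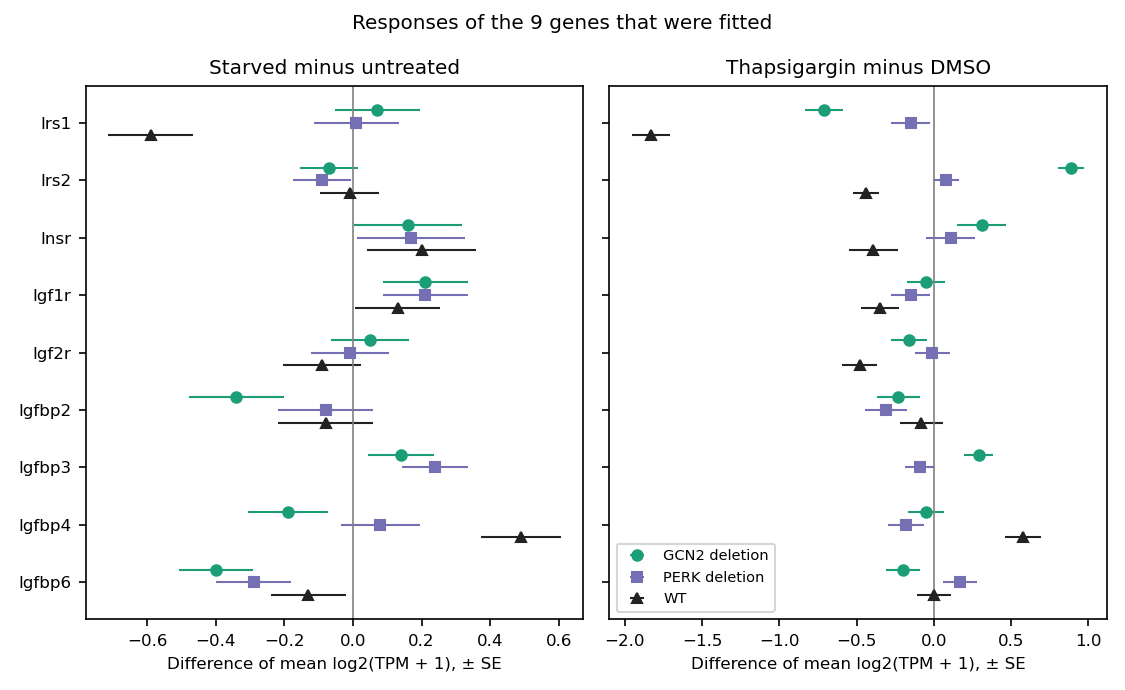
Difference of mean log2(TPM + 1), with its SE from limma as bars, for the 9 members that were fitted, starved minus untreated (left) and thapsigargin minus DMSO (right), in GCN2-deletion, PERK-deletion and WT cells. Irs1 stands apart in WT with starvation at -0.59, and Irs2 in the GCN2-deletion line with thapsigargin at 0.89; the WT and PERK-deletion thapsigargin values describe the choice of genes, and Igfbp3 in WT is not drawn because it is listed at 0.

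The IGF-binding protein genes showed the widest differences between lines among the members, up to 4.65 on the log2 scale for Igfbp2. Igfbp6, whose product prefers IGF2, made up most of the family's RNA in WT cells, Igfbp2 most of it in PERK-deletion cells, and Igfbp3, whose product carries most IGF in blood, was listed at 0 in all 12 WT libraries. In these bulk libraries, fewer cells that express a gene and less RNA per cell cannot be told apart.

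**Figure D4:**
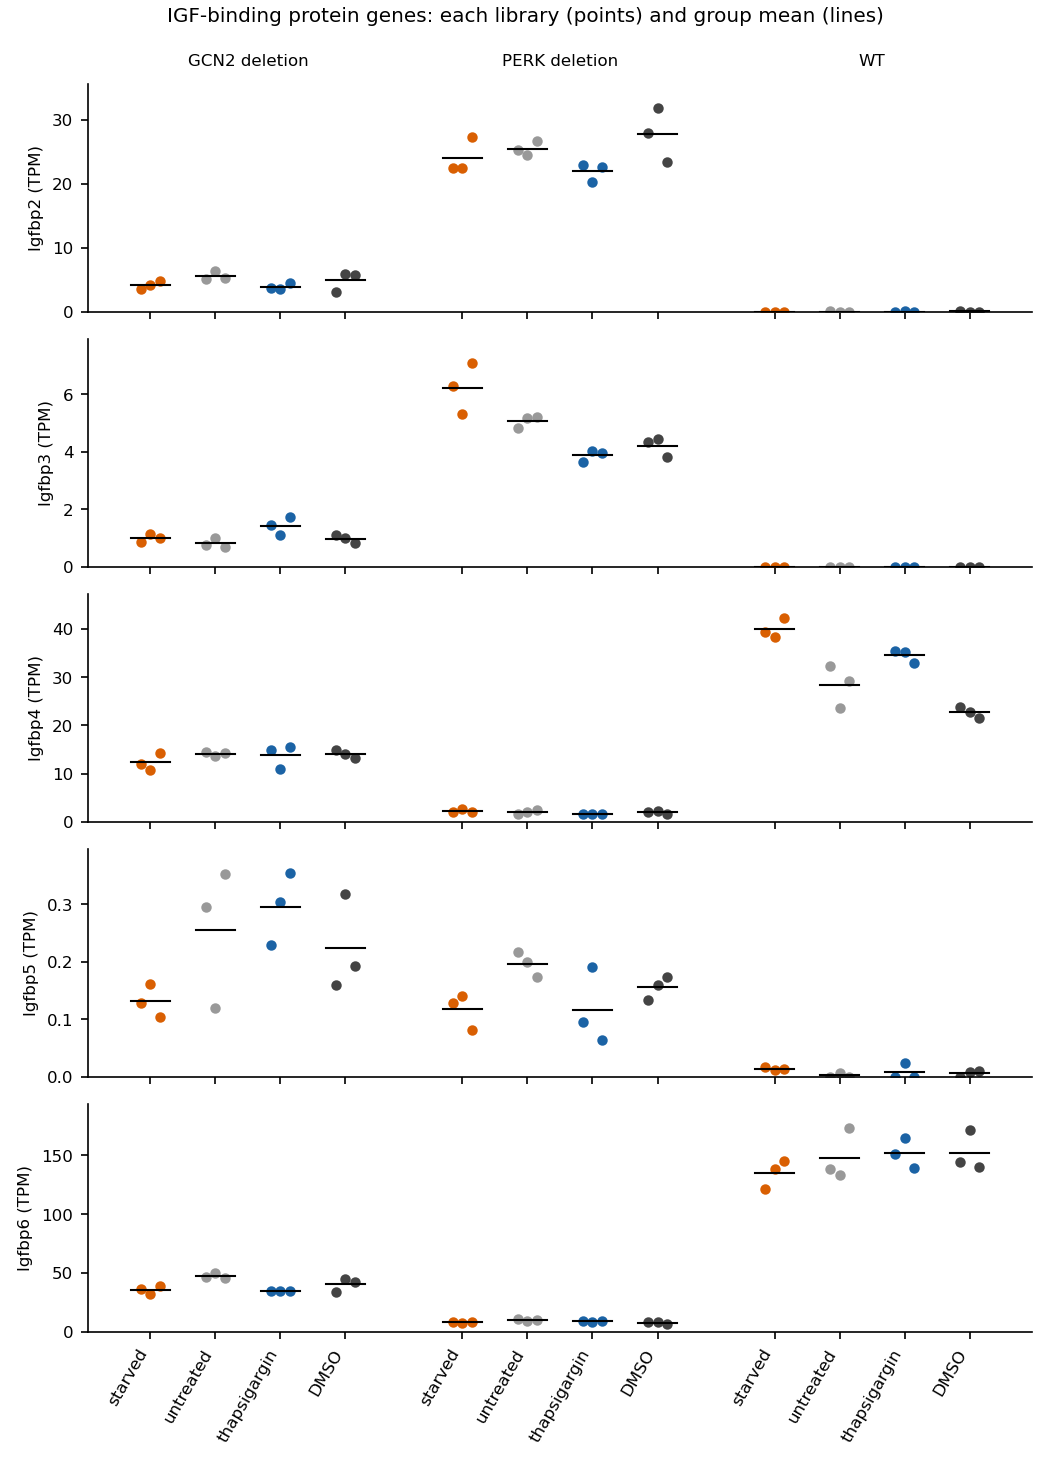
TPM (vertical axes, linear from 0, a separate scale for each gene) of Igfbp2, Igfbp3, Igfbp4, Igfbp5 and Igfbp6 in all 36 libraries; points are libraries and lines are means of the 3 libraries of a group. Igfbp2 and Igfbp3 are highest in PERK-deletion cells, at 20.3 to 31.8 and 3.66 to 7.07 TPM, and Igfbp6 in WT cells, at 121 to 173 TPM; Igfbp5 stays at or under 0.354 TPM.

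Igfbp2 had 5.15, 6.33 and 5.31 TPM in untreated GCN2-deletion cells, 25.3, 24.5 and 26.7 TPM in untreated PERK-deletion cells and 0.0810, 0.0471 and 0.0426 TPM in untreated WT cells. The order of the lines held without overlap in all 36 libraries, since WT libraries reached 0.205 TPM, GCN2-deletion libraries ran over 3.15 to 6.33 TPM and PERK-deletion libraries over 20.3 to 31.8 TPM. The untreated differences from WT were 2.64 for GCN2-deletion and 4.65 for PERK-deletion cells, on a scale that understates changes of genes near 0. Igfbp2 passed the filter of 1 TPM in 3 libraries through the deletion lines alone, as did Igfbp3, so both are described against WT with no p.

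Igfbp3 had 0.764, 1.02 and 0.692 TPM in untreated GCN2-deletion cells and 4.82, 5.17 and 5.22 TPM in untreated PERK-deletion cells. Every untreated library of both deletion lines was above WT, and no fold is given because WT is listed at 0. Igfbp5, whose product binds bone matrix, did not pass the filter of 1 TPM in 3 libraries. It ran over 0.104 to 0.354 TPM in GCN2-deletion, 0.0640 to 0.217 TPM in PERK-deletion and 0 to 0.0238 TPM in WT libraries. Its neighbour Igfbp2 was also lowest in WT.

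Igfbp4 and Igfbp6 were ordered the other way. Igfbp4, whose product is cut by the protease PAPPA, had 14.5, 13.6 and 14.3 TPM in untreated GCN2-deletion cells, 1.70, 2.03 and 2.48 TPM in untreated PERK-deletion cells and 32.3, 23.6 and 29.3 TPM in untreated WT cells. No libraries of different lines overlapped. The differences from WT were -0.95 in the GCN2-deletion line (SE 0.116, limma adjusted p = 9.7e-08) and -3.26 in the PERK-deletion line (SE 0.116, limma adjusted p = 2.57e-19). Igfbp6 had 46.5, 49.7 and 45.6 TPM in untreated GCN2-deletion cells, 10.5, 8.95 and 9.84 TPM in untreated PERK-deletion cells and 138, 133 and 173 TPM in untreated WT cells, again without overlap. For GCN2-deletion cells its difference was -1.62 (SE 0.109, limma adjusted p = 5.15e-13). For PERK-deletion cells it was -3.79 (SE 0.109, limma adjusted p = 1.61e-21).

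Of the 7 members with 1 TPM in 3 libraries of every line, 5 differed between untreated GCN2-deletion and WT cells, where 44.4% of all genes did, with 1 higher (21.2% of all genes) and 4 lower (23.2%). Between untreated PERK-deletion and WT cells 5 of these 7 differed, where 49.6% of all genes did, with 2 higher (31.1%) and 3 lower (18.5%). The shares are over all 16083 genes tested, which needed 1 TPM in any 3 libraries, a looser filter than that of the 7. Both comparisons share the untreated WT libraries. The fibroblast markers given above also differ between the lines, 6 of 8 being lower and 2 of 8 (Vim and Twist1) higher in every PERK-deletion library than in any WT library, and their part in these differences was not tested.

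**Figure D5:**
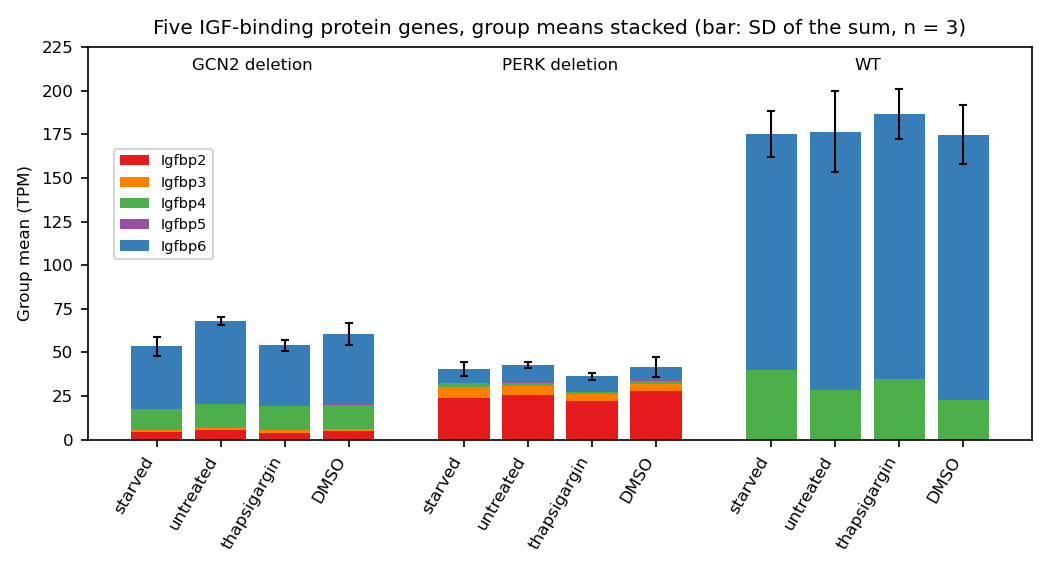
Summed TPM of Igfbp2 to Igfbp6 (vertical axis, from 0), stacked by gene as group means, with the SD of the sum over 3 libraries as bars. Sums sit at 53.4 to 68.1 TPM in GCN2-deletion, 36.3 to 42.6 TPM in PERK-deletion and 175 to 186 TPM in WT groups, with Igfbp2 forming most of the PERK-deletion bars and Igfbp6 most of the others.

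Summed over the 5 genes, untreated cells held 68.1 ± 2.37 TPM in the GCN2-deletion line, 42.6 ± 1.81 TPM in the PERK-deletion line and 177 ± 23.3 TPM in WT (SD, n = 3 each). Igfbp6 gave 69.4% of the sum in GCN2-deletion, 22.9% in PERK-deletion and 83.8% in WT cells. Igfbp2 gave 8.21%, 59.9% and 0.0328%. With thapsigargin and when starved the makeup stayed close to this, Igfbp2 giving 60.6% and 59.5% of the sum in PERK-deletion cells.

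Treatments moved a few binding proteins within a line. In WT cells Igfbp4 had 39.4, 38.4 and 42.2 TPM when starved, against 32.3, 23.6 and 29.3 TPM untreated, with all starved libraries higher. It rose by 0.49 (SE 0.116, limma adjusted p = 0.00163), but not with the WT groups fitted alone (adjusted p = 0.057). In GCN2-deletion cells it had 12, 10.7 and 14.2 TPM when starved, against 14.5, 13.6 and 14.3 TPM untreated, with overlap. The GCN2-deletion response was lower than that of WT (log2 difference -0.68, SE 0.164, limma adjusted p = 0.00679), and this difference passed under every setting tried. In PERK-deletion cells Igfbp4 had 2.02, 2.60 and 2.07 TPM when starved, against 1.70, 2.03 and 2.48 TPM untreated, also with overlap. The PERK-deletion response was also below that of WT, by a log2 difference of -0.41 (SE 0.164), which did not pass (limma adjusted p = 0.114).

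In GCN2-deletion cells Igfbp6 had 35.9, 32.1 and 39.2 TPM when starved, against 46.5, 49.7 and 45.6 TPM untreated. All starved libraries were lower, and Igfbp6 fell by 0.40 (SE 0.109, limma adjusted p = 0.00795). Against the DMSO libraries, which had 34.1, 44.6 and 42.0 TPM, the change was -0.16 and did not pass (adjusted p = 0.357), and without starved replicate 2 the adjusted p was 0.0607.

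With starvation 1 of 9 members thus changed in the GCN2-deletion line, where 23.8% of all genes did, 11.7% rising and 12.1% falling. In WT 2 of 9 changed, 1 up and 1 down, where 29.8% of all genes did, 12.5% rising and 17.3% falling. The 9 include Igfbp2 and Igfbp3, which were at 0 to 0.0810 TPM in the starved and untreated WT libraries, so no fall could show in them there. The differences from the WT response use the same 9. In the PERK-deletion line 0 of 9 passed by limma, where 12% of all 16083 genes did. The response differed from that of WT for 2 of 9 members in the GCN2-deletion line (Irs1 and Igfbp4), against 7.71% of all genes (3.64% higher and 4.07% lower), and for 1 of 9 in the PERK-deletion line (Irs1), against 10.8% (5.53% higher and 5.28% lower). The members' medians for starvation were 0.05, 0.01 and -0.01 in GCN2-deletion, PERK-deletion and WT cells, beside -0.00, -0.02 and -0.05 over all genes.

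Thapsigargin in GCN2-deletion cells raised Igfbp3, with 1.45, 1.10 and 1.73 TPM against 1.09, 0.990 and 0.837 TPM with DMSO and no overlap (log2 change 0.29, SE 0.096, limma adjusted p = 0.0181). This call did not hold after median-of-ratios rescaling (0.21, adjusted p = 0.0838) or with the filter at 5 TPM (adjusted p = 0.172). Nor did it hold with the length trend taken out (0.19, limma adjusted p = 0.104). It was also lost without DMSO replicate 3 or thapsigargin replicate 1 or 3 (0.24, 0.28 and 0.20). In the lines that chose the set, Igfbp4 had 1.57, 1.61 and 1.57 TPM with thapsigargin in PERK-deletion cells, against 2.04, 2.17 and 1.61 TPM with DMSO. In WT it had 35.5, 35.2 and 33.0 TPM with thapsigargin, against 23.9, 22.7 and 21.5 TPM with DMSO. Igfbp4 was higher in each thapsigargin library of WT (log2 difference 0.58). In the PERK-deletion line the thapsigargin libraries were the lower (-0.18, SE 0.116), but the highest of them and the lowest DMSO library both read 1.61 TPM. Igfbp6 in WT was level, at 151, 165 and 139 TPM with thapsigargin, against 144, 171 and 140 TPM with DMSO.

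Comparing DMSO with untreated cells, the log2 differences of the members ran from -0.35 (Igf1r in WT) to 0.24 (Insr in the GCN2-deletion line). Igfbp6 was lower with DMSO in every library of both deletion lines (-0.24 in GCN2-deletion and -0.32 in PERK-deletion cells). By limma, 0.137% of all genes passed in GCN2-deletion, 0.236% in PERK-deletion and 0.0808% in WT cells. The DMSO libraries of WT and PERK-deletion cells are part of the values that chose the set, so no count of members is given.

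The ligand genes were low. Ins1 and Ins2, the insulin genes, and Igfbp1 were listed at 0 in all 36 libraries. Igf1 had 1.38, 1.22 and 0.764 TPM in untreated GCN2-deletion cells, 0.548, 0.450 and 0.922 TPM in untreated PERK-deletion cells and 5.16, 5.59 and 5.60 TPM in untreated WT cells. It was lower than WT in the GCN2-deletion line (log2 difference -1.62, limma adjusted p = 3.69e-11) and in the PERK-deletion line (-1.99). Igf1 did not reach 1 TPM in 3 PERK-deletion libraries, so the latter difference is given with no p. Igf2 had 3.79, 3.55 and 4.04 TPM in untreated GCN2-deletion cells and 0.261, 0.240 and 0.299 TPM in untreated WT cells, and reached 1 TPM in GCN2-deletion libraries alone. Igfbp7, a related secreted protein with weak IGF binding, averaged 141 ± 5.29 TPM in GCN2-deletion, 285 ± 8.09 TPM in PERK-deletion and 39.9 ± 3.60 TPM in WT cells (SD, n = 3 each), and was higher than WT in both (1.80 and 2.81).

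Of 12 ligands and partners of the binding proteins, 7 were fitted. With starvation 1 rose and 0 fell in GCN2-deletion cells, 1 rose and 0 fell in PERK-deletion cells, and 3 rose and 1 fell in WT, against 23.8%, 12% and 29.8% of all genes called in either direction. The list's medians were -0.07, -0.05 and 0.04, beside -0.00, -0.02 and -0.05 over all genes. Stc2, a stanniocalcin that blocks the proteolysis of IGFBP4 by PAPPA, rose in starved WT cells to 5.05 ± 0.462 TPM, against 1.18 ± 0.0947 TPM untreated (log2 change 1.47, limma adjusted p = 1.2e-09), and its response was lower than that of WT, with differences of -1.64 in GCN2-deletion and -1.11 in PERK-deletion cells (limma adjusted p = 4.29e-07 and 0.000149). Htra1, a protease that cuts binding proteins, rose in starved WT cells (0.43, adjusted p = 0.00178) and Igf1 fell by 0.35 (adjusted p = 0.0454). Pappa rose in starved GCN2-deletion cells (0.46, adjusted p = 0.00134). With thapsigargin in GCN2-deletion cells 3 of these 7 rose and 1 fell, where 25.4% of all genes rose and 11.2% fell, Stc2 reaching 16.3 ± 1.10 TPM, against 2.64 ± 0.393 TPM with DMSO (2.26, limma adjusted p = 1.92e-13).

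Of 18 adaptor and feedback genes around the receptors, 16 were fitted. With starvation 4 rose and 1 fell in GCN2-deletion cells, 4 rose and 1 fell in PERK-deletion cells, and 3 rose and 3 fell in WT, against 23.8%, 12% and 29.8% of all genes called in either direction. The list's medians were 0.13, 0.06 and 0.05. In WT, Socs3, a feedback inhibitor that targets IRS proteins, fell by 0.96 (limma adjusted p = 3.23e-10), and Grb10, an adaptor that restrains the insulin and IGF1 receptors, rose by 0.54 (limma adjusted p = 0.00011). The Socs3 response was higher than in WT by 0.94 in GCN2-deletion and 0.82 in PERK-deletion cells, and the Grb10 response was lower (differences -0.69 and -0.65), all 4 passing. With thapsigargin in GCN2-deletion cells 4 rose and 3 fell (25.4% and 11.2% of all genes), among them Gab1, a docking protein (0.58), and Socs3 (-0.77).

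Of 33 genes from phosphoinositide 3-kinase to mTOR and FOXO, 31 were fitted. With starvation 6 rose and 6 fell in GCN2-deletion cells, 3 rose and 1 fell in PERK-deletion cells, and 3 rose and 8 fell in WT, against 23.8%, 12% and 29.8% of all genes called in either direction. The list's medians were 0.01, 0.01 and -0.11. Eif4ebp1, the translation repressor that mTOR switches off, rose in starved WT cells to 437 ± 14.1 TPM, against 179 ± 26.1 TPM untreated (log2 change 1.29, limma adjusted p = 1.17e-12), and its response was lower than that of WT, with differences of -1.57 in GCN2-deletion and -0.87 in PERK-deletion cells (limma adjusted p = 1.02e-10 and 6.13e-06). Pik3r3, a regulatory subunit of the kinase, fell in starved cells of all 3 lines, by 0.73 in GCN2-deletion, 0.74 in PERK-deletion and 1.21 in WT cells. With thapsigargin in GCN2-deletion cells 9 rose and 5 fell (25.4% and 11.2% of all genes), the largest rises being Foxo3 (1.10) and Foxo1 (1.09), transcription factors that AKT holds inactive.

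Of 10 FOXO target genes, 9 were fitted. With starvation 5 rose and 2 fell in GCN2-deletion cells, 2 rose and 1 fell in PERK-deletion cells, and 4 rose and 2 fell in WT, against 23.8%, 12% and 29.8% of all genes called in either direction. The list's medians were 0.28, 0.08 and 0.30. Txnip, an inhibitor of glucose uptake, rose in starved GCN2-deletion (1.19) and WT cells (1.13) and fell in PERK-deletion cells by 0.75, where its response was lower than that of WT (difference -1.88, limma adjusted p = 8.54e-10). Pdk4, a kinase that shuts off pyruvate oxidation, averaged 87.2 ± 11.6 TPM in untreated PERK-deletion cells and 8.88 ± 1.00 TPM in WT cells (3.15, limma adjusted p = 5.76e-21). Thapsigargin in GCN2-deletion cells gave 3 rises and 2 falls among the 9 (25.4% and 11.2% of all genes), with Txnip at 119 ± 10.0 TPM, against 17.0 ± 0.0635 TPM with DMSO (2.74, limma adjusted p = 2.44e-17). All 3 genes of IGF2 mRNA-binding proteins were fitted; 2 fell in starved WT cells and 0 passed with starvation in the deletion lines or with thapsigargin in the GCN2-deletion line.

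Genes whose 12 group means of log2(TPM + 1) tracked a member most closely were read from 10405 candidates by Pearson's r, a description with no p in which the groups share lines and treatments. For Irs1 these were Zfp217 (0.980), Pnisr (0.976) and Gm14288 (0.972). For Irs2 they were Nup205 (0.968), Asxl2 and Tor1aip1 (0.967 each), and for Igf1r they were Sike1 (0.977), Fn1 (0.975) and Ptprn (0.972). For the binding proteins, whose pattern is mostly the difference between lines, r was higher, as for Igfbp2 with Nnat (0.999), Igfbp3 with Etl4 (0.990), Igfbp4 with Sdr39u1 (0.989) and Igfbp6 with Tfpi (0.996).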

How the data were processed

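The submitters' processing notes name FastQC, kallisto and mm10, without versions, so quantification settings are not given in the sources used here. Per the labels' protocols, RNA was extracted with Trizol and sequenced with a stranded TruSeq kit. The deposited values are TPM (length-normalized transcript abundance at a fixed library total) per gene symbol, computed by the authors, with column totals of 999999.83 to 1000000.09. TPM keeps no depth, so the depth is unknown and no counting interval or floor is given. Of the symbols, 54106 matched GENCODE M21.

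Here log2(TPM + 1) was fitted over all 12 groups in limma 3.58.1 (R 4.3.3) with trended, robust variance moderation, for the 16083 genes reaching 1 TPM in 3 or more libraries (24 residual and a median of 2.8 prior degrees of freedom). Adjusted p-values are limma's, by Benjamini-Hochberg across the whole gene table for each comparison, and a change is called under 0.05. Log2 changes are on the log2(TPM + 1) scale, which understates low genes. The code was tested on simulated data. Tables and plots used Python 3.11.15 and matplotlib 3.10.9. Promoter windows are RefSeq's. Replicate correlations were 0.9621 to 0.9876, mitochondrial TPM 4.27% to 9.49% and microRNA TPM 0.803% to 3.57%.

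The members and the gene lists were chosen with earlier results of these data known. All members are named; pathway genes named are up to 2 with the largest rise and 2 with the largest fall past the threshold in a list and comparison. Like genes are the 3 highest by r with a range of at least 1 (log2) and a mean of at least 5 TPM in some group. Alternatives were the other control, median-of-ratios rescaling, quantile normalization, a pseudocount of 0.1, no filter, a filter at 5 TPM, the compared groups alone, the replicate block and leaving out each library. Removal of the length trend and of 6 libraries with over 2% microRNA TPM were added after the data were seen. The replicate numbers did not pair libraries (correlations of deviations -0.179 to 0.155 over 33 pairs).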

Additional observations from a re-analysis of the deposited data

Results flagged for a closer look

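Tested differences between lines in the starvation response were found for Irs1 and Igfbp4. The Irs1 response was higher than in WT by 0.66 in the GCN2-deletion line and by 0.60 in the PERK-deletion line, and both share the WT libraries. Neither Irs1 difference passed against DMSO, with the compared groups fitted alone, or without untreated WT replicate 1. For Igfbp4 the GCN2-deletion response lay below that of WT, by -0.68. The PERK-deletion response lay the same way, at -0.41 (SE 0.164), but this difference did not pass (limma adjusted p = 0.114).

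For thapsigargin, a further pair of results had opposite directions in 2 lines, and the difference was not tested in either. Igfbp4 was higher with thapsigargin in WT cells and slightly lower in PERK-deletion cells, a difference of -0.76. The PERK-deletion change was small (-0.18, SE 0.116), and the highest thapsigargin and lowest DMSO library there both read 1.61 TPM. Irs2 was higher with thapsigargin in GCN2-deletion cells and lower in WT cells, a difference of 1.34, which was 0.94 with the length trend taken out. The WT and PERK-deletion values are among those the genes were chosen on.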

How the results depend on the processing

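The count of members called was recomputed under each setting. For starvation in GCN2-deletion cells (1 called) it was 0 against DMSO, 2 with the length trend removed, 2 without the 6 libraries of high microRNA share, and 0 to 1 leaving out single libraries. In PERK-deletion cells (0 called) it was 1 against DMSO, 2 with quantile normalization, 2 with the length trend removed and 0 to 1 leaving out single libraries. In WT (2 called) it was 0 with the compared groups alone and 2 under each left-out library. For thapsigargin in GCN2-deletion cells (3 called) it was 6 against untreated cells, 5 with quantile normalization, 5 without the 6 libraries and 2 to 5 leaving out single libraries. For the GCN2-deletion difference in the starvation response (2 called) it was 1 against DMSO, 1 with the compared groups alone and 1 to 2 leaving out single libraries. For the PERK-deletion difference (1 called, Irs1) it was 2 against DMSO, with Irs1 not among them, 0 without a filter, 0 with the compared groups alone and 0 to 1 leaving out single libraries. The counts of 7 between untreated lines, in which Igfbp2 and Igfbp3 are included, ran over 5 (compared groups alone) to 9 (length trend removed) for GCN2-deletion and 6 to 8 for PERK-deletion cells over all settings. The cause was not tested for these changes. The sign turned for the following values. Irs1 in starved GCN2-deletion cells (0.07) was -0.14 against DMSO and -0.08 with the length trend removed. Irs1 in starved PERK-deletion cells (0.01) ran over -0.10 to 0.15 leaving out single libraries, -0.03 and -0.09 among them. Irs2 in starved WT cells (-0.01) was 0.05 after median-of-ratios rescaling, 0.06 after quantile normalization, 0.01 with the length trend removed, 0.02 without the 6 libraries, and 0.00 or 0.02 leaving out single libraries. Irs2 in starved GCN2-deletion cells (-0.07) reached 0.01, and its difference from WT (-0.06) ran over -0.13 to 0.02, 0.00 among them. Irs1 in GCN2-deletion against WT cells (-0.35 untreated) was 0.07 between DMSO groups. With the replicate block the counts were 1, 0, 2, 3, 2, 1, 7 and 7, the same as without it, so the block changed no count. The tables give TPM without depth, and 3 technical replicates of 1 line per genotype limit what the differences between lines can show.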
